A study of Mus musculus with 3 samples.

Results

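Bone morphogenetic protein (BMP) signalling was followed through 8 rows of the gene table: the ligands Bmp4 and Bmp7, the target genes Id1, Id2, Id3, Msx1 and Msx2, and the inhibitory SMAD gene Smad6. They were taken by symbol, 8 of 20471 rows. The cells were mouse embryonic fibroblasts of WT genotype, labelled as embryo tissue, and the assay was DRUG-seq2, in which lysates of a plate are reverse transcribed with a barcode per well, pooled and sequenced as 1 library. On each of 3 plates the wells held CFAE+8 medium and 1 compound of a commercial kinase inhibitor library for 4 days. A further 30 wells of plate 3 carry the name of a medium and no compound: 4 MEF, 3 basal, 3 bCFAE, 5 bC8FAE, 3 bC6FAE[2], 4 bC6FAE[10], 4 bCLFAE and 4 bCSFAE. The labels do not spell out these names. They are used as names only, except that bC8FAE was read from its name as the screening medium CFAE+8, which no label states, and its 5 wells joined the compound wells of plate 3 as a reference. Compound doses, mouse strain and the number of embryos behind the cells were not stated either, and no well is named as a vehicle control. Nothing says that wells came from separate cultures, so p-values measure the spread between wells, which may be technical.

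BMP ligands bind pairs of type I and type II serine/threonine kinase receptors, which phosphorylate the receptor SMADs encoded by Smad1, Smad5 and Smad9. These join the product of Smad4 and move to the nucleus. Id1, Id2 and Id3, inhibitors of basic helix-loop-helix transcription factors, are direct targets in many cell types, and the homeobox genes Msx1 and Msx2 respond to BMP in limb, craniofacial and other mesenchyme. Smad6 is itself a BMP target and feeds back by blocking the pathway. Fibroblasts of the embryo both make and answer BMPs, and ID proteins are also known to respond to growth factor signals.

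In mm10 with the GENCODE vM21 annotation, Bmp4 lies at chr14:46383520-46390669 (minus strand), Bmp7 at chr2:172868012-172940321 (minus), Id1 at chr2:152736251-152737410 (plus) and Id2 at chr12:25093799-25097140 (minus). Id3 lies at chr4:136143497-136145755 (plus), Msx1 at chr5:37820485-37824583 (minus), Msx2 at chr13:53466884-53473074 (minus) and Smad6 at chr9:63953076-64022059 (minus). An exon of Bmp4 overlaps the antisense gene Gm15217. Whether counting used the strand is unstated, so reads of Bmp4 and Gm15217 cannot be told apart.

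The start regions of Bmp4, Id2, Msx1 and Smad6 are shown. These genes moved in the media or compound wells described next, as did Id3, whose region is not shown. The choice includes every region with a match to the motifs given below. RefSeq (GRCm38.p6) start regions were matched for 6 of the 8 genes, leaving Bmp7 and Id1. They are the 250 bases before the start, read 5′ to 3′ on the gene's strand, with 4 bases more for Smad6: Bmp4 chr14:46390670-46390919 (minus), Id2 chr12:25096093-25096342 (minus), Msx1 chr5:37824586-37824835 (minus) and Smad6 chr9:64022056-64022309 (minus).
Bmp4: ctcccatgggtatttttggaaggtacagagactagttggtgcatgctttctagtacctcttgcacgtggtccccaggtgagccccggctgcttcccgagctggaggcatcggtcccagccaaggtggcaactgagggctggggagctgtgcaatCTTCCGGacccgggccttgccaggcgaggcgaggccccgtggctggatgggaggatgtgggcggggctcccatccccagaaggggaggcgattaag
Id2: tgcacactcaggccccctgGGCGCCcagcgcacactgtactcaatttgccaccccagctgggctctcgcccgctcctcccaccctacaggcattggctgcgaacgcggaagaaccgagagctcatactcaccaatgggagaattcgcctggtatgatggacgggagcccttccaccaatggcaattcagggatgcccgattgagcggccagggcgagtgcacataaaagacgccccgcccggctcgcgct
Msx1: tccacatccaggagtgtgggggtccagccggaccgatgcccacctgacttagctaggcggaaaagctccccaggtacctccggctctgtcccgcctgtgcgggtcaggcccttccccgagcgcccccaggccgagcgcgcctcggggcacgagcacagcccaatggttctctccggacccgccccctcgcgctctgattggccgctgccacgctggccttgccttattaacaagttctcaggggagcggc
Smad6: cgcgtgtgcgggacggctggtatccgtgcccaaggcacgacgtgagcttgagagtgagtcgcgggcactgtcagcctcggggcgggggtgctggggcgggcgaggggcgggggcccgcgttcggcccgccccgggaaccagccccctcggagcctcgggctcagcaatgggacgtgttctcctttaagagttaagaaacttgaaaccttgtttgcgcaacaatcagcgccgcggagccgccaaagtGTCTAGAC
Capitals mark the matches to 3 motifs searched on both strands over 250 bases before and 50 after the start. GTCTAGAC, a palindrome bound by SMADs, was found in Smad6, its first base 4 before the start, and in 0.213% of 32851 mouse start regions. GGCGCC, a GC-rich element of BMP-SMAD targets, was found in Id2 at 231 bases before the start and in 11.9% of regions. The RefSeq start of Id2 and its window lie inside the GENCODE span of the gene given above, so the annotations differ on where Id2 begins. CCGGAAG, an ETS factor motif, was found in Bmp4 on the reverse strand (CTTCCGG) at 96 bases before the start and in 8.86% of regions. No motif overlapped another. Msx1, Id3 and Msx2 held none of these letters in the window, which says nothing of the factors themselves.

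Values are CPM, the standard scaling of a gene's count to the total count of its well. Medium wells had totals of 119295 (bC8FAE well 4) to 726228 with a median of 448881; MEF well 3, at 138747, was also low. Screening wells had median totals of 318166, 608985.5 and 427868 on plates 1, 2 and 3. Of 221 compound wells, 217 had at least 10% of their plate's median and were used, covering 210 compounds (87, 83 and 40). Fibroblast markers (10 of 10 in the table) summed to 5168 to 8238 CPM over the medium wells.

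In the medium wells, the ligands and the targets Id1, Id2 and Msx1 had higher means than in the MEF and basal wells in the media whose names end in FAE, except Bmp4 in bCFAE, while Id3 and Smad6 followed other orders. Bmp7, a ligand best known from kidney and skeletal development, was almost absent from MEF and basal wells and present in every other medium well. It was listed at 0 in all 3 basal wells, which allows up to 2.97 CPM over the group, and at 2.24, 0, 0 and 0 CPM in the MEF wells. The bCFAE wells had 34.6, 30.3 and 25.6 CPM of Bmp7, and the bC8FAE wells 43.5, 50.0, 37.9, 58.7 and 40.9. Every FAE well thus stood above every MEF and basal well. The bC6FAE[2] wells had 61.4, 62.1 and 39.9 CPM, the bC6FAE[10] wells 67.9, 82.5, 53.4 and 76.6, the bCLFAE wells 58.1, 39.2, 36.1 and 57.0, and the bCSFAE wells 48.5, 35.6, 51.0 and 60.9. These groups overlapped one another, with the highest mean in bC6FAE[10]. Bmp7 was at least 10.4-fold higher in bCFAE than in basal wells, set against 3 counts over the basal group (edgeR's quasi-likelihood test, Benjamini-Hochberg adjusted p = 6.8e-08). In bC8FAE against MEF wells it had 83 counts against 1, a ratio of 53.9 with a 95% counting interval of 9.42 to 2156 (edgeR adjusted p = 1.9e-10).

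Bmp4, a ligand that patterns mesoderm and limb mesenchyme, followed another order: it was not higher in bCFAE than in basal wells and rose in the media beyond bCFAE. MEF wells had 13.4, 14.2, 43.2 and 32.3 CPM, basal wells 14.1, 26.4 and 6.34, and bCFAE wells 16.5, 12.4 and 23.3. These 3 groups overlapped. The bC8FAE wells had 65.2, 39.1, 40.5, 109 and 71.6 CPM, the bC6FAE[2] wells 55.5, 75.5 and 30.7, and the bC6FAE[10] wells 104, 78.7, 109 and 118. The bCLFAE wells had 40.7, 34.7, 45.1 and 71.7 CPM, and the bCSFAE wells 55.7, 62.6, 49.0 and 60.9. All of these lay above the 3 bCFAE wells. On the log2 scale, Bmp4 exceeded bCFAE by 1.82 ± 0.31 (SE) in bC8FAE and by 1.82 ± 0.34 in bC6FAE[2], by 2.64 ± 0.28 in bC6FAE[10], by 1.53 ± 0.32 in bCLFAE and by 1.77 ± 0.30 in bCSFAE, each called by edgeR. Its log2 difference between bCFAE and basal wells was -0.07 ± 0.50 (edgeR adjusted p = 0.933).

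**Figure D1:**
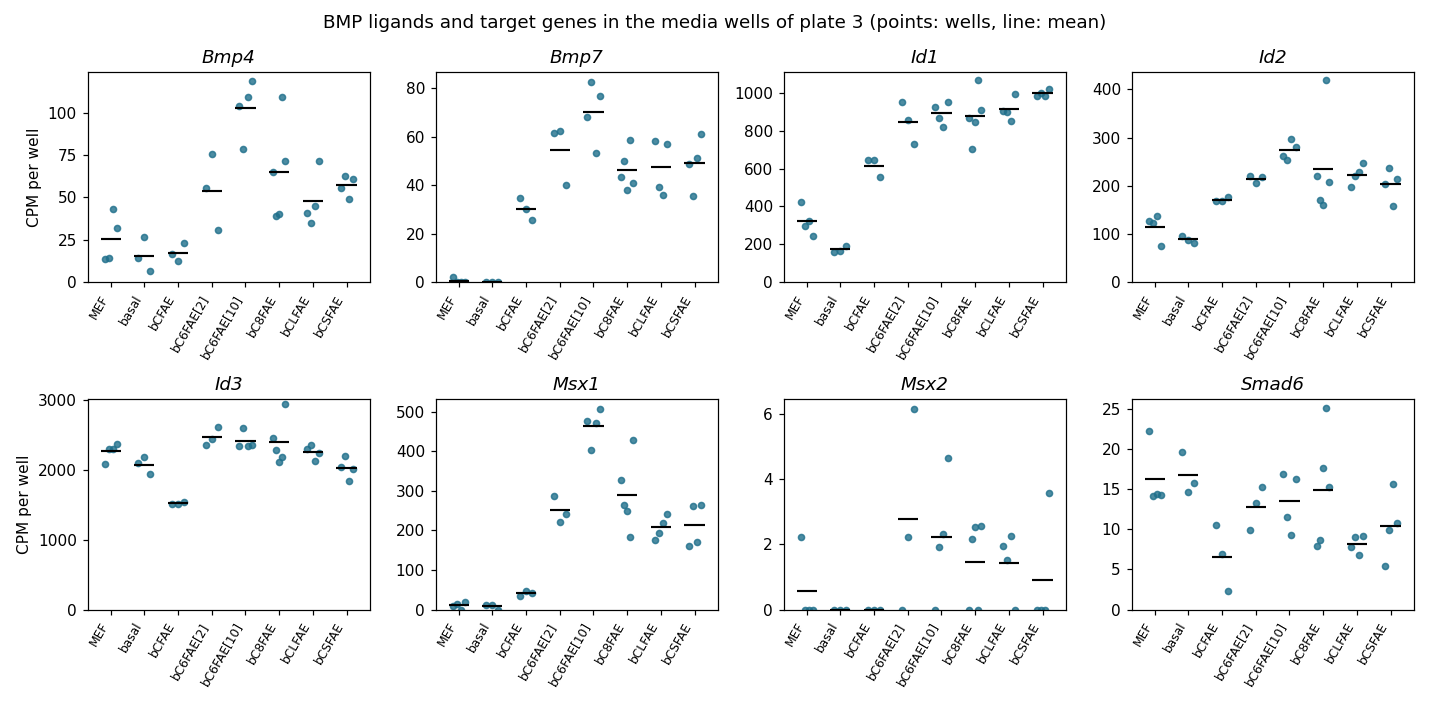
CPM of the 8 genes in each medium well (points) with the group mean (line), by medium, each gene on its own axis. Bmp7 is at or near 0 in the MEF and basal wells and between 25.6 and 82.5 CPM in the FAE media, and Id3 is lowest in bCFAE.

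Id1 showed separate levels in the basal, MEF and bCFAE wells, with the other media above them. MEF wells had 423, 296, 324 and 244 CPM, basal wells 161, 164 and 193, and bCFAE wells 642, 646 and 554. The basal wells lay under all MEF wells and the bCFAE wells above them. The other media ranged from 702 to 1065 CPM, with means of 844 ± 112 (SD, n = 3) in bC6FAE[2], 877 ± 130 (n = 5) in bC8FAE, 891 ± 58.7 (n = 4) in bC6FAE[10], 913 ± 59.3 (n = 4) in bCLFAE and 996 ± 16.9 (n = 4) in bCSFAE. Neighbours in that order overlapped in their wells, and all lay above bCFAE. Id1 was lower in basal than in MEF wells by a log2 difference of -0.88 ± 0.16 (edgeR adjusted p = 7.0e-04), higher in bCFAE than in basal wells by 1.71 ± 0.16 (edgeR adjusted p = 1.1e-13), and higher in bC8FAE than in bCFAE wells by 0.49 ± 0.12 (edgeR adjusted p = 0.0031).

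Id2 moved less. Its means were 88.8 ± 6.73 CPM (SD, n = 3) in basal, 115.5 ± 27.5 (n = 4) in MEF, 172 ± 4.57 (n = 3) in bCFAE, 203 ± 32.9 (n = 4) in bCSFAE, 215 ± 7.31 (n = 3) in bC6FAE[2], 223 ± 20.2 (n = 4) in bCLFAE, 235 ± 106 (n = 5) in bC8FAE and 273 ± 19.5 (n = 4) in bC6FAE[10]. The step from MEF to bCFAE is the only one between neighbours in this order at which the wells did not overlap. The wide spread in bC8FAE comes from well 4, at 419 CPM against 159 to 219 in the other 4 wells. Without this well the bC8FAE mean was 189 ± 28.5 (n = 4), below that of bCSFAE, so its place in the order rests on 1 well. The bCLFAE wells, up to 246 CPM, would then be neighbours of the bC6FAE[10] wells, from 253 CPM, without overlap. Id2 rose by 0.81 ± 0.20 on the log2 scale from basal to bCFAE (edgeR adjusted p = 8.0e-04) and by 0.71 ± 0.14 from bCFAE to bC6FAE[10] (edgeR adjusted p = 1.8e-04).

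Id3 went the other way in bCFAE. MEF wells ranged from 2091 to 2374 CPM and basal wells from 1937 to 2193, and the 3 bCFAE wells had 1508, 1513 and 1542. No well of another medium was that low: bCSFAE began at 1842 CPM, and means ran from 2024 ± 147 (SD, n = 4) there to 2472 ± 130 (n = 3) in bC6FAE[2]. Id3 fell by 0.58 on the log2 scale (SE 0.13) from basal to bCFAE (edgeR adjusted p = 3.8e-04), while Id1 and Id2 rose in the same comparison. Against MEF wells, bC8FAE wells differed by 0.00 ± 0.11 (edgeR adjusted p = 0.980).

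Msx1 covered the widest range of the targets with counts. MEF wells had 8.95, 14.2, 0 and 17.9 CPM, basal wells 11.3, 11.7 and 0, and bCFAE wells 33.1, 46.8 and 41.9. The bC8FAE wells had 328, 263, 248, 184 and 427 CPM, the bC6FAE[2] wells 287, 222 and 243, and the bC6FAE[10] wells 477, 403, 471 and 506. The bCLFAE wells had 176, 194, 219 and 241 CPM and the bCSFAE wells 160, 260, 171 and 265. MEF and basal wells overlapped, bCFAE wells stood above both, and every well of the other 5 media stood above bCFAE. Msx1 was higher in bCFAE than in basal wells by 2.19 ± 0.55 on the log2 scale (edgeR adjusted p = 0.0011) and in bC8FAE than in bCFAE wells by 2.91 ± 0.22 (edgeR adjusted p = 9.1e-16).

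Msx2 and Smad6 had too few counts for the test in the medium wells. Msx2, the close relative of Msx1, never exceeded 6.14 CPM and had 0 to 4 counts per group. Smad6 had 2.33 to 10.5 CPM in bCFAE (mean 6.58 ± 4.11, SD, n = 3), 14.2 to 22.4 in MEF (16.3 ± 4.02, n = 4) and 14.7 to 19.7 in basal wells (16.8 ± 2.64, n = 3). It ranged from 7.91 to 25.1 CPM in bC8FAE, from 5.39 to 17.0 in the 2 bC6FAE groups and bCSFAE, and from 6.77 to 9.19 in bCLFAE. At 13 to 26 counts per group, neighbouring media in the order of means overlapped throughout.

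Over the comparisons, the 6 tested genes were read against the share of all 6985 tested genes that passed an adjusted p of 0.05. Between basal and MEF wells only Id1 passed, lower, against 0.644% of genes. Between bCFAE and basal wells 5 passed (Bmp7, Id1, Id2 and Msx1 higher, Id3 lower), against 34.5%. Between bC8FAE and MEF wells Bmp4, Bmp7, Id1, Id2 and Msx1 were higher, 5 against a background of 32.1%. The median log2 difference of the 6 was 1.26 in bCFAE against basal (unchanged with Bmp7 set at its bound) and 1.33 in bC8FAE against MEF, beside 0.01 and 0.00 over all genes. Bmp7 and Msx1 had at most 2.24 and 17.9 CPM in MEF and basal wells, too low to pass the filter on low counts there. They entered the test only through FAE wells, where they are high. Their part in both counts of 5 and in these medians is therefore partly set by the filter.

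Against bCFAE, Bmp4, Id1, Id3 and Msx1 were higher in each of the 5 further media. These 5 comparisons share the 3 bCFAE wells, so each is given on its own. In bC8FAE, 4 of the 6 passed against 11.2% of all genes, and Msx1 was higher by 2.91 ± 0.22. In bC6FAE[2], 5 passed against 8.52%, with Msx1 at 2.70 ± 0.24 and Bmp7 at 0.94 ± 0.26. In bC6FAE[10], all 6 passed against 13.7%, with Msx1 at 3.55 ± 0.22 and Bmp7 at 1.24 ± 0.23. In bCLFAE, 4 passed against 6.44%, with Msx1 at 2.36 ± 0.23 and Id3 at 0.59 ± 0.12. In bCSFAE, 4 passed against 6.0%, with Msx1 at 2.39 ± 0.23 and Id3 at 0.40 ± 0.12. The Id3 call in bCSFAE (edgeR adjusted p = 0.0383) was lost on leaving out any 1 of the 3 bCFAE wells or bCSFAE well 1, 2 or 4 (adjusted p from 0.0609 to 0.149). The Bmp7 call in bC6FAE[2] (0.0136) was lost without bC6FAE[2] well 1 (0.0908) or 2 (0.0772) or bCFAE well 2 (0.0538), and its Id1 call (0.0038) without bC6FAE[2] well 1 (0.0563). In bCSFAE, Bmp7 (0.104) was called without bCSFAE well 2 (0.0449).

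The bC6FAE[10] wells differed from the bC6FAE[2] wells in Msx1, by 0.85 ± 0.17 on the log2 scale (edgeR adjusted p = 0.0051), 1 of 6 genes against 0.401% of all genes. All 4 bC6FAE[10] wells, 403 to 506 CPM, lay above the 3 bC6FAE[2] wells, 222 to 287 CPM. Without bC6FAE[2] well 2, the adjusted p was 0.0949. Bmp4 differed by 0.83 ± 0.24, with an edgeR adjusted p of 0.121, and 0.0132 in a fit of these 2 groups alone. The other 4 differed by -0.07 to 0.31.

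**Figure D2:**
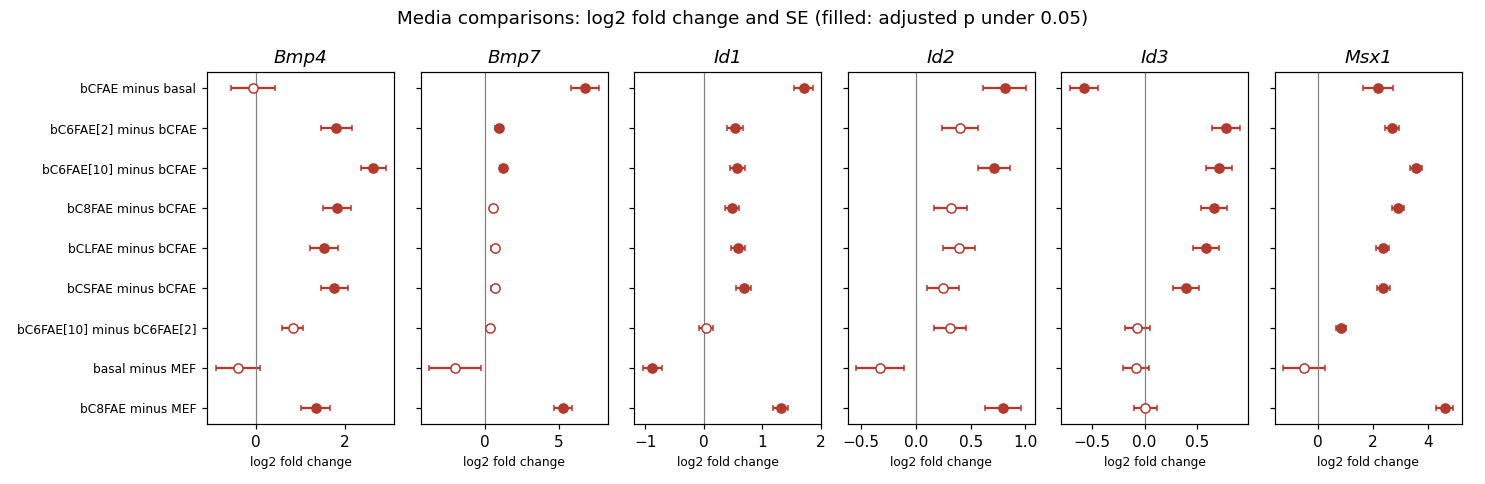
Log2 fold change with its SE (x axis, a scale per gene) of the 6 tested genes in each comparison of media (rows), filled circles at an adjusted p under 0.05. Msx1 and Bmp4 are raised in the 5 media set against bCFAE; the Bmp7 values against basal and MEF wells rest on 0 and 1 counts and depend on edgeR's prior count.

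Other pathway genes came from a list of 49, of which 48 were in the table and 22 tested in the medium wells. From basal to bCFAE 4 rose and 5 fell, 9 of 22, a share near the 34.5% of all genes called. The ligand Bmp2 went from 1 count to 73, a ratio of 40.5 with a 95% counting interval of 7.05 to 1622, and the SMAD inhibitor Smad7 rose by 1.93 ± 0.51 on the log2 scale. Fst, which binds activins and some BMPs, rose by 1.31 ± 0.25, and Runx2, a bone transcription factor, by 1.57 ± 0.57. The ligand-like Gdf10 was at 0 counts in bCFAE and at least 18.02-fold higher in basal wells. The co-receptor Eng fell by 1.02 on the log2 scale, the receptor SMAD gene Smad5 by 0.64, the BMP-binding Twsg1 by 1.02 and the target Atoh8 by 1.22. The median of the 22 was -0.26, with or without Gdf10 at its bound. Bmp2, Smad7 and Runx2 had means of 0.979, 6.93 and 6.15 CPM in basal wells. These, like Gdf10 at 0 in bCFAE, are too low to pass the filter on low counts there. The 4 genes entered the test only through wells where they are high. Their part in this share and in those of the later comparisons is therefore partly set by the filter.

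In bC8FAE against MEF wells, Bmp2 rose by 4.11 ± 0.48 on the log2 scale (76.1 against 2.88 CPM), and 5 list genes fell. Of the 22 tested list genes 7 were called, a share near the 32.1% of all genes. The secreted BMP antagonist Grem1 was lower (-1.06 ± 0.30), as were Fst (-1.38 ± 0.26), Gdf10 (-2.76 ± 0.52), Twsg1 (-0.80 ± 0.24) and the SMAD corepressor Ski (-0.90 ± 0.21).

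Against bCFAE, Atoh8 and the antagonist Nbl1 were called higher and Fst lower in each of the 5 further media. Of the 22 tested list genes, bC8FAE had 7 called (11.2% of all genes), bC6FAE[2] 4 (8.52%), bC6FAE[10] 7 (13.7%), bCLFAE 4 (6.44%) and bCSFAE 5 (6.0%). Atoh8 differed by 1.08 ± 0.23 in bC8FAE and 1.86 ± 0.21 in bC6FAE[10], Nbl1 by 0.56 ± 0.16 and 1.38 ± 0.15, and Fst by -1.96 ± 0.22 and -0.96 ± 0.19. Bmp2 was higher in bC8FAE (0.71 ± 0.24), bCLFAE (0.90 ± 0.23) and bCSFAE (0.85 ± 0.23). Fstl3, another activin-binding protein, was lower in bC8FAE (-1.37 ± 0.47), bC6FAE[2] (-1.76 ± 0.58) and bC6FAE[10] (-1.85 ± 0.51). In bC6FAE[10], the transcription factor gene Gata2 was higher (2.50 ± 0.50) and the ubiquitin ligase gene Smurf2 lower (-0.97 ± 0.23). Gata2, with a mean of 4.25 CPM in bCFAE, also entered the test only through wells where it is high, so its call is partly set by the filter. The same holds for Fstl3, with means of 5.59 and 5.27 CPM in bC6FAE[2] and bC6FAE[10]. Smad5 was higher in bC8FAE (0.60 ± 0.18), the receptor gene Bmpr1a was lower in bCSFAE (-0.89 ± 0.28), and Gdf10, at 0 counts in bCFAE, was at least 3.24-fold higher in bC8FAE and 3.17-fold in bC6FAE[10]. Between basal and MEF wells edgeR called 0 of 22, with 5 at an unadjusted p under 0.05, and DESeq2 called 0 of the 4 to which it gave an adjusted p. Between bC6FAE[10] and bC6FAE[2] wells both called 0 of 22, with 3 at an unadjusted p under 0.05 in edgeR and 0 in DESeq2. Over all genes, edgeR had 658 and 547 of 6985 at that unadjusted p in these comparisons, in the same order.

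Markers of other cell types differed between the media as well. Smooth muscle markers summed to 2119 to 3779 CPM in MEF and basal wells, 1607 to 1876 in bCFAE, 911 to 1976 in the bC6FAE groups and 141 to 318 in bC8FAE, bCLFAE and bCSFAE. Adipocyte markers summed to 93.2 to 282 CPM in MEF and basal wells and 0 to 16.8 in the others, with Plin1 at 0 throughout. Macrophage markers (5 of 6 in the table) went from 129 to 339 CPM in MEF and basal wells to 25.5 to 88.3, with Ptprc, the leukocyte-defining marker, at 0 in every medium well. Neural markers went from 66.6 to 104 CPM up to 251 to 456. Epithelial, endothelial, skeletal muscle and extraembryonic endoderm markers stayed at or under 147 CPM. The part of these cells in the BMP gene differences was not tested, and fewer cells of a type cannot be told apart from less RNA per cell.

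In the compound wells, each compound was compared with the other screening wells of its plate, 44 to 89 wells, of which 5 on plate 3 are the bC8FAE wells and the rest held other compounds. Most compounds have 1 well, so the spread is taken from the plate. Of 210 compounds, edgeR called Bmp7 lower in 4, Id1 lower in 4, Id3 lower in 1, Msx1 lower in 5 and Smad6 higher in 2. Over all genes and compounds 0.65% of tests were called (0.37% higher and 0.28% lower), against which the counts for Id3 and Smad6 lie near the background and those for Bmp7, Id1 and Msx1 above it. For Bmp4 edgeR called 0, with 5 higher and 12 lower at an unadjusted p under 0.05, and DESeq2 called 1. For Id2 both called 0, with 5 higher and 8 lower at an unadjusted p under 0.05 in edgeR. Over all genes, the number at that unadjusted p ran from 82 of 8298 (Afatinib) to 3664 of 9432 (NT157) in single compounds. In simulated counts with 1 changed well on plate 2, edgeR called 2% and 32% of genes at log2 changes of -1 and -2. It called 20% and 82% of genes at log2 changes of 1 and 2. The simulation changed the Erdafitinib well, at 1 dispersion (0.1), in genes more abundant than Smad6. Its rates may not hold for Smad6 or on the shallower plates 1 and 3. A gene without a call in a compound may therefore still have changed, above all downwards. Msx2 was not tested: it had at most 4 counts in a well and a count in 15 of 90, 35 of 86 and 13 of 41 compound wells of plates 1, 2 and 3. Bmp4 ranged from 3.46 to 78.2 CPM on plate 1, 9.63 to 164 on plate 2 and 20.0 to 104 on plate 3, with medians of 36.5, 48.3 and 49.3.

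**Figure D3:**
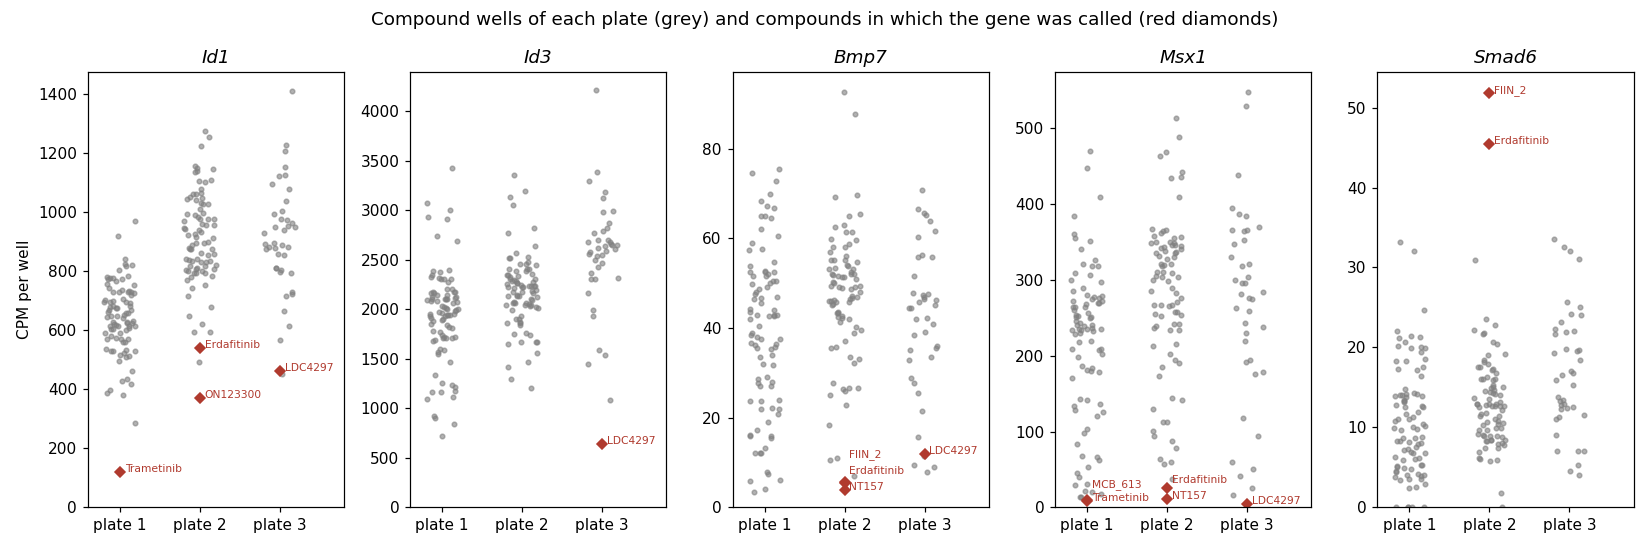
CPM of Id1, Id3, Bmp7, Msx1 and Smad6 in every compound well used, by plate (grey points), with the compounds in which the gene was called in red. Called wells lie at the low end for Id1, Id3, Bmp7 and Msx1 and at the high end for Smad6.

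Trametinib, an inhibitor of the MAP kinase kinase MEK, gave the lowest Id1 of any well on its plate. Its well had 120 CPM of Id1 (30 counts), against a median of 646 and a minimum of 286 in 89 other wells, a log2 difference of -2.61 ± 0.37 (edgeR adjusted p = 2.1e-08). It also had 2 counts of Msx1 (8.02 CPM against a median of 236), a ratio to the other wells of 0.0391 with a 95% counting interval of 0.00473 to 0.141. That call (edgeR adjusted p = 0.0469) was lost with DESeq2's size factors in edgeR (0.0529), without a filter (0.0971) and with wells of at least 50% of the plate's median total (0.0610). Id3 stood at 926 CPM against a median of 1983 (edgeR adjusted p = 0.0529), Bmp7 at 12.0 against 42.0 (3 counts, a ratio of 0.301 with a counting interval of 0.0619 to 0.881) and Smad6 at 32.1 against 9.87, none of them called. In this well 13.3% of all genes were called. Its marker sums were the highest on the plate for smooth muscle (3203 CPM), skeletal muscle (629), epithelial (878), neural (581), adipocyte (233) and extraembryonic endoderm genes (28.1); their part was not tested.

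Erdafitinib, an inhibitor of fibroblast growth factor receptors (FGFR), came with lower Bmp7, Id1 and Msx1 and a higher Smad6. Its well had 5.51 CPM of Bmp7 (4 counts) against a median of 48.8 in 85 other wells, a log2 difference of -3.18 ± 0.81 (edgeR adjusted p = 0.0035). Id1 stood at 540 against 897 CPM (-0.89 ± 0.26, edgeR adjusted p = 0.0145) and Msx1 at 26.2 against 299 CPM (-3.54 ± 1.01, edgeR adjusted p = 0.0111). Smad6 stood at 45.5 CPM (33 counts) against 12.7, higher by 1.62 ± 0.41 (edgeR adjusted p = 0.0030). Bmp4 at 37.2 CPM, Id2 at 171 and Id3 at 2072 were not called. Among all genes 11.9% were called. Fibroblast markers summed to 10339 CPM and adipocyte markers to 46.9 CPM in this well, the highest on the plate; their part was not tested. The table lists this count, and that of MCB_613, for 2 wells each with the same values; they were counted once.

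FIIN_2, another FGFR inhibitor, gave the highest Smad6 on the plate, 51.9 CPM (18 counts), a log2 difference of 1.70 ± 0.49 (edgeR adjusted p = 0.0153). Bmp7 had 2 counts (5.76 CPM), a ratio to the other wells of 0.124 with a 95% counting interval of 0.0150 to 0.447. Its edgeR adjusted p of 0.0295 became 0.0542 without a filter and 0.0638 in DESeq2. Msx1 at 60.5 CPM and Id1 at 677 CPM were not called. The background was 10.1% of genes. Neural markers summed to 144 CPM, the lowest on the plate, and their part was not tested.

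LDC4297, an inhibitor of the cyclin-dependent kinase CDK7, gave 4 calls among the tested genes, all lower: Bmp7, Id1, Id3 and Msx1. Msx2 was not tested, and 19.6% of all genes were called in this well. Id3 stood at 643 CPM against a median of 2583 and a minimum of 1083 in 45 other wells, a log2 difference of -2.17 ± 0.43 (edgeR adjusted p = 2.5e-04). Id1 stood at 463 against 891 CPM (-1.15 ± 0.31, edgeR adjusted p = 0.0062). Msx1 had 2 counts (3.99 CPM against 281), a ratio of 0.0152 with a 95% counting interval of 0.00183 to 0.0548. Bmp7 stood at 12.0 against 44.4 CPM (-1.99 ± 0.71, edgeR adjusted p = 0.0395, and 0.0822 without a filter, 0.0696 in DESeq2 or 0.0558 without the bC8FAE wells in the reference). Fibroblast markers summed to 2161 CPM in this well, the lowest on the plate, and their part in these values was not tested.

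NT157, MCB_613 and ON123300 had 1 or 2 calls each. NT157 had 2 calls among the tested genes, Bmp7 and Msx1, a share near the 28.4% of all genes called in its well. The NT157 well had 2 counts of Bmp7 (3.85 CPM, a ratio of 0.0824 with a 95% counting interval of 0.00997 to 0.298) and 11.6 CPM of Msx1 against 299, a log2 difference of -4.49 ± 1.20 (edgeR adjusted p = 0.0026). Its Bmp4 was the lowest on the plate at 9.63 CPM (edgeR adjusted p = 0.0562, and 0.0473 in DESeq2), and so was its Id3 at 1206 CPM (edgeR adjusted p = 0.0509), whereas its Id1 at 1050 CPM lay above 70 of 85 other wells. Macrophage markers summed to 641 CPM there, the highest on the plate, and fibroblast markers to 2540 CPM, the lowest; their part was not tested. MCB_613, with 4.67% of genes called, had 9.66 CPM of Msx1 (5 counts; -4.55 ± 1.44, edgeR adjusted p = 0.0470), a call lost without a filter (0.106) and with wells of at least 50% of the plate's median (0.0605). ON123300, with 0.148% of genes called, had the lowest Id1 of plate 2 at 371 CPM (-1.27 ± 0.26, edgeR adjusted p = 0.0147). It also had that plate's highest Bmp7 at 92.7 CPM and lowest Id2 at 144.9 CPM, neither of them called.

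**Figure D4:**
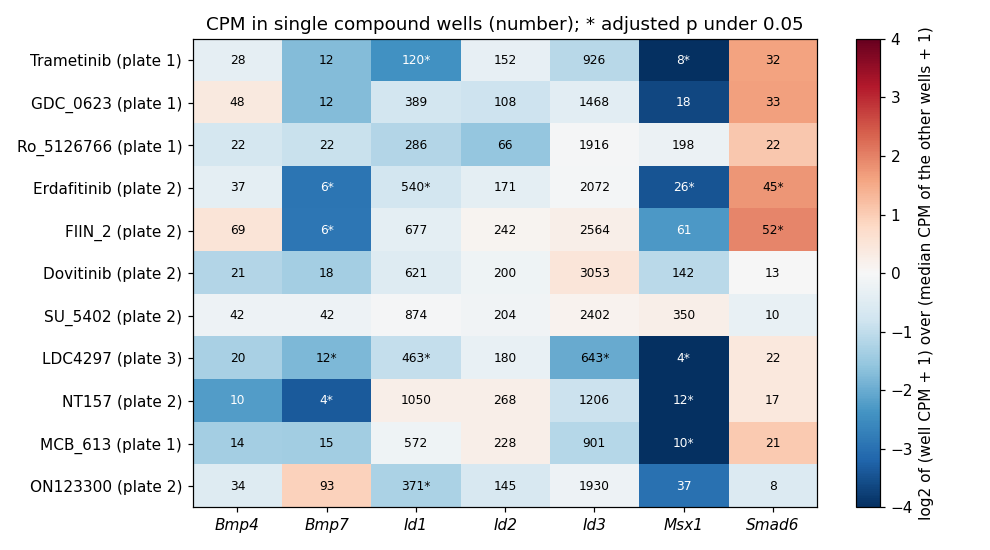
CPM (numbers) of 7 genes in the wells of 11 compounds, coloured by log2 of (CPM + 1) over the median of the plate's other wells + 1, with colour ending at 4 either way and asterisks at an edgeR adjusted p under 0.05. Bmp7 and Msx1 are low in most of these wells, and Smad6 is high for Erdafitinib, FIIN_2, GDC_0623 and Trametinib, called in the first 2.

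Compounds were also grouped by the main target known for each, and 23 such classes were tested against the other screening wells with the plate as a term. No inhibitor of BMP or TGF-beta receptors was among the compounds used. Of 158 tests on the 8 genes, edgeR called 2 higher and 8 lower, against 3.03% over all genes and classes (1.72% higher and 1.32% lower). At an unadjusted p under 0.05 there were 33, a count not to be set against the 3.03%. Over all genes, the number at that unadjusted p ran from 167 of 7167 (IKK or TBK1 or RIPK) to 2398 of 7400 (mTOR) in single classes. The calls fell in the MEK, FGFR, mTOR and VEGFR or PDGFR classes. Class wells are few, with doses and selectivity unstated.

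The 3 MEK inhibitors had lower Id1, Id2, Bmp7 and Msx1, 4 of 6 tested genes, against 22.5% of all genes. GDC_0623 and Ro_5126766 taken alone had 4.68% and 0.251% of all genes called. Id1 stood at 389 CPM with GDC_0623, 286 with Ro_5126766 and 120 with Trametinib, against 380 to 968 and a median of 649 in the 87 other wells of plate 1. The last 2 lay under all others. The log2 difference was -1.39 ± 0.19 (edgeR adjusted p = 6.8e-09), and it ranged from -2.08 to -0.95 on leaving out each compound in turn, called each time. Ro_5126766 rests on a shallow well of 45416 counts, 13 of them Id1, 3 of them Id2 and 1 each of Bmp7 and Smad6.

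Id2 stood at 108, 66.1 and 152 CPM in those wells, in the same order, against a median of 194 (-0.81 ± 0.22, edgeR adjusted p = 0.0033, and 0.0705 without GDC_0623). Msx1 stood at 18.1, 198 and 8.02 CPM against 236 (-2.89 ± 0.89, edgeR adjusted p = 0.0115). Bmp7 stood at 12.1, 22.0 and 12.0 CPM against 42.6 (-1.72 ± 0.61, edgeR adjusted p = 0.0311). Both were lost without GDC_0623 (0.169 and 0.199) or Trametinib (0.231 and 0.223), while leaving out each compound gave log2 differences of -4.05 to -2.17 for Msx1 and -1.82 to -1.64 for Bmp7. Smad6, too low for the class test, stood at 33.1, 22.0 and 32.1 CPM against 0 to 24.7 in the other wells. Bmp4 differed by -0.04 ± 0.48 and Id3 by -0.58 ± 0.26 (edgeR adjusted p = 0.0999).

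The 4 FGFR inhibitors on plate 2 differed among themselves. Smad6 stood at 45.5 CPM with Erdafitinib and 51.9 with FIIN_2 but at 12.6 with Dovitinib and 10.3 with SU_5402, beside a median of 12.8 in 82 other wells. Bmp7 stood at 5.51, 5.76, 18.3 and 42.4 CPM in the same order, against a median of 48.9, and Id1 at 540, 677, 621 and 874 CPM against 914. SU_5402 lay close to the median in all 3. As a class, Smad6 was higher by 1.04 ± 0.25 (edgeR adjusted p = 0.0013), Bmp7 lower by -1.28 ± 0.31 (0.0017) and Id1 lower by -0.46 ± 0.13 (0.0052), 3 of 7 tested genes against 15% of all genes. All 3 calls were lost without Erdafitinib (0.304, 0.115 and 0.169), and those of Smad6 (0.0783) and Id1 (0.0642) also without FIIN_2. Msx1 differed by -0.91 ± 0.39 (edgeR adjusted p = 0.112). No difference between single inhibitors of a class was tested.

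The mTOR inhibitors, 5 compounds in 6 wells over the 3 plates, had less Id3 and Msx1. These are 2 of 7 tested genes, a share near the 20.2% of all genes called. Id3 stood at 1165 CPM with GNE_317, 724 with PF_04979064 and 1718 with PI_103 on plate 1 (median of others 1995), at 1668 and 1467 in the CC_115 wells on plate 2 (median 2216), and at 1083 with BEZ235 on plate 3 (median 2583). All 6 wells lay below their plate's median. The log2 difference was -0.72 ± 0.17 (edgeR adjusted p = 5.6e-04), called with each compound left out in turn. Msx1 stood at 45.4, 31.0, 257, 185, 94.4 and 15.7 CPM in the same wells, with medians of 236, 302 and 281 (-1.15 ± 0.41, edgeR adjusted p = 0.0300). That call was lost without GNE_317 (0.0949), PF_04979064 (0.0944), CC_115 (0.114) or BEZ235 (0.141). Id1 differed by 0.03 ± 0.12 and Id2 by -0.07 ± 0.11.

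The VEGFR or PDGFR inhibitors, 12 compounds in 14 wells, had more Id3, 1 of 7 tested genes against 1.22% of all genes. Id3 stood at 4218 CPM with Cediranib, 3188 and 3387 with Regorafenib, 3131 with BIBF_1120, 2913 and 2998 with Toceranib and 2927 with SU14813. The other 7 wells, on plates 1 and 2, had 1879 to 2310 CPM. Wells outside the class had medians of 1954 on plate 1, 2192 on plate 2 and 2555 on plate 3, where the class wells are those of Cediranib and Regorafenib. The log2 difference was 0.41 ± 0.10 (edgeR adjusted p = 0.0188), lost on leaving out SU14813 (0.0739), Toceranib (0.128), BIBF_1120 (0.0544), Cediranib (0.0803) or Regorafenib (0.0830).

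**Figure D5:**
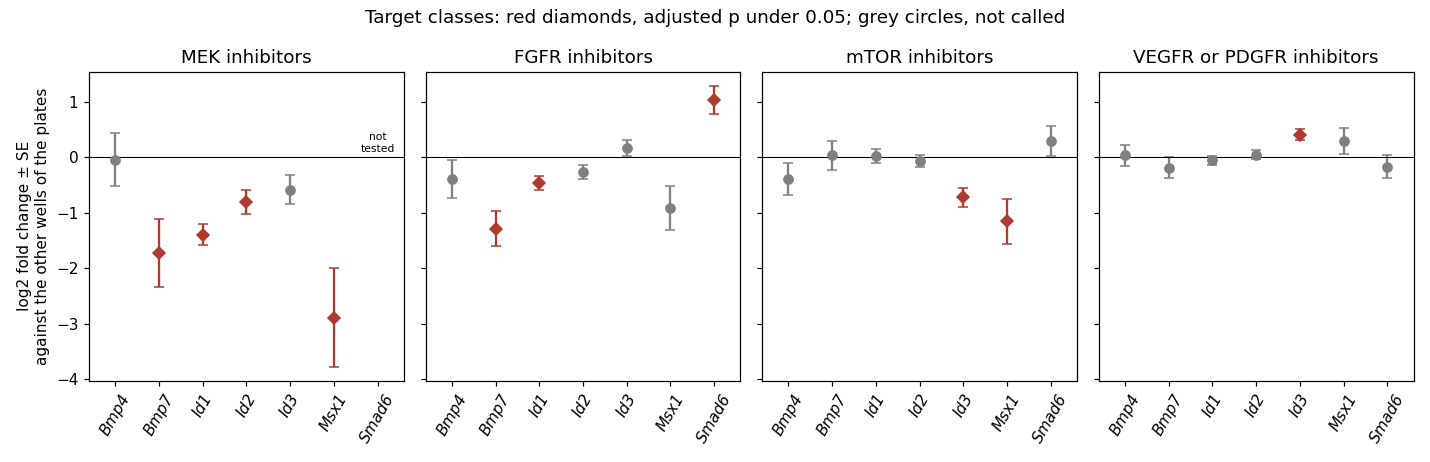
Log2 fold change with its SE (y axis) of the tested genes in 4 target classes against the other screening wells of their plates, with called genes as red diamonds. Id1 is lower with MEK and FGFR inhibitors, Id3 lower with mTOR and higher with VEGFR or PDGFR inhibitors, and Smad6 higher with FGFR inhibitors.

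Among the other pathway genes, Atoh8 and Ski were called higher and Bmp2 lower with both MEK and FGFR inhibitors. With MEK inhibitors 4 of 17 tested list genes rose (Atoh8 1.12 ± 0.20, Bmpr1a 1.01 ± 0.39, Grem1 1.01 ± 0.36 and Ski 0.78 ± 0.20) and Bmp2 fell by 2.22. Together they are 5 of 17, a share near the 22.5% of all genes called. With FGFR inhibitors 3 of 21 rose (Atoh8 0.50 ± 0.14, Ski 0.48 ± 0.13 and the limb transcription factor gene Tbx3 1.04 ± 0.32), and Bmp2 fell by 1.37 and Runx2 by 1.31. That makes 5 of 21, a share a little above the 15% of all genes called. With mTOR inhibitors Fst, Grem1 and Smad7 rose by 0.83 ± 0.27, 0.73 ± 0.25 and 0.81 ± 0.22, and Smad5 fell by 0.55, 4 of 19, near the 20.2% of all genes called. Grem1 rose with PLK1 inhibitors (1.07 ± 0.23), Fst with CDK1/2/7/9 inhibitors (1.08 ± 0.22) and Nbl1 with RAF inhibitors (0.57 ± 0.17), where 4.46%, 1.69% and 2.48% of all genes were called.

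In single compounds, 4 of 22 tested list genes were called with Trametinib, 5 of 30 with Erdafitinib, 3 of 30 with FIIN_2, 5 of 30 with NT157 and 5 of 23 with LDC4297, where 13.3%, 11.9%, 10.1%, 28.4% and 19.6% of all genes were called. These shares lie near the background, and under it for NT157. Gdf5, a ligand of joint formation, was found at 39.2 CPM with GDC_0623, 16.0 with Trametinib and 20.7 with Erdafitinib, against medians of 0 (edgeR adjusted p = 3.4e-08, 0.0368 and 1.7e-09). With medians of 0, Gdf5 passed the filter on low counts only through wells where it is high, so these calls are partly set by the filter. The same holds for Nog and Sostdc1 at the low medians given next. The BMP antagonist Nog stood at 28.9 CPM with Erdafitinib against 3.54 (2.66 ± 0.63), and the antagonist Sostdc1 at 19.3 against 2.57 (2.42 ± 0.71). In the same well Atoh8 rose by 0.93 ± 0.25 and Eng by 1.02 ± 0.34. With FIIN_2, Ski, Smad4 and Tbx3 rose by 1.12 ± 0.23, 1.34 ± 0.29 and 2.07 ± 0.56. With Trametinib, Bmpr1a, Grem1 and Ski rose by 1.58 ± 0.52, 1.89 ± 0.47 and 1.01 ± 0.30, and with GDC_0623 Atoh8 and Fstl3 rose by 1.36 ± 0.30 and 2.19 ± 0.66 while Bmp2 was left with 1 count.

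With LDC4297, Fst rose by 2.39 ± 0.42, the type I receptor gene Acvrl1 by 1.44 ± 0.49 and the ubiquitin ligase gene Smurf1 by 1.36 ± 0.49, with Bmp2 lower by -2.71 ± 0.85 and Smad5 by -1.07 ± 0.40. With NT157, Grem1 rose by 2.29 ± 0.39, Smad7 by 1.35 ± 0.35 and Smurf1 from a median of 23.7 to 61.6 CPM, with Nbl1 lower by -1.62 ± 0.43 and Smad5 by -1.08 ± 0.39. Smad5 was also lower with MCB_613 (-1.51 ± 0.47), BEZ235 (-1.48 ± 0.48) and PF_04979064 (3 counts). Smad7 rose by 1.55 ± 0.51 with BEZ235. Outside these compounds, CCT196969 had 69.8 CPM of Sostdc1 against a median of 0 and more Nbl1 (1.22 ± 0.30), MSC2530818 had 24.6 CPM of Bmp8b against a median of 0, and Grem1 rose with BMS_3 (1.61 ± 0.46) and Rigosertib (1.94 ± 0.39). With medians of 0, Sostdc1 and Bmp8b passed the filter on low counts only through wells where they are high, so these calls are partly set by the filter.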

How the data were processed

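The authors deposited 1 table of read counts per gene and well over 3 plates; per the submitters' processing notes the tools included STAR and the genome build was mm10. How barcodes were split and genes counted, and whether molecular tags were used, is not stated in the labels. Of 274 columns, 17 were not used because their plate was unclear or their name could not be read, and 4 columns identical to another were counted once, leaving 253 wells; 26 date-like gene names were kept as listed. The 8 genes, the list of other BMP pathway genes, the marker lists and the compound classes were chosen with earlier results of these data known. CPM is the count over the well's total. Tests used edgeR 4.0.16 (R 4.3.3) quasi-likelihood fits on the deposited counts over all genes that pass filterByExpr with a minimum count of 10, with TMM scaling and Benjamini-Hochberg adjustment, called under 0.05. The 30 medium wells shared 1 fit without a block. Each compound was fitted against the other screening wells of its plate with at least 10% of its median total, and classes with the plate as a term; the fits were tested on simulated data. Counting intervals are exact at 95% and, like the 3-count floors, cover counting error only. Alternatives were DESeq2 1.42.0, its size factors in edgeR, no filter, only the groups compared, a replicate block, a 50% minimum and leaving out wells or compounds and, added later, the bC8FAE wells of the reference. The 8 genes, called list genes (1 is not reported here) and, by correlation, the 3 genes most like each were named by rule, with up to 5 called compounds per gene and direction. Well numbers were not taken to pair wells.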

Additional observations from a re-analysis of the deposited data

Results flagged for a closer look

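Within groups of 4 or more medium wells, 6 of the 40 gene and group combinations held a well far from the others, while chance gives about 1 in 20 for measured values. That rate does not hold for 3 of the 6, wells with 1 or 2 counts beside wells at 0, where any single count stands apart. Id2 in bC8FAE well 4 was at 419.1 CPM against 159 to 219 in the other 4, and this well has the lowest total of all medium wells. Id3 in bC6FAE[10] well 2 was at 2607 CPM against 2340 to 2359. MEF well 1 stood apart 3 times, with 2.24 CPM of Bmp7 and 2.24 CPM of Msx2 (1 count each, others at 0) and 22.4 CPM of Smad6 (others 14.2 to 14.4). Msx2 in bCSFAE well 4 was at 3.58 CPM (2 counts) with the others at 0.

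Wells named nocell, which enter no comparison, held counts of some of these genes. Of 25308 counts in nocell 3, 5.9% of the plate's median total, 17 were Id1, 4 were Id2 and 46 were Id3, and Bmp4, Bmp7 and Msx1 had 1, 1 and 2. Of 4280 counts in nocell 2, 24 were Id3 and none were from the other 7 genes.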

How the results depend on the processing

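Of the called and uncalled values recomputed, 671 of those in the medium wells kept direction and side of the threshold, 12 lost the call, 8 gained it and 11 changed sign; for compounds 70 kept it and 10 lost it, and for classes 74 and 22. The sign changed only in values never called: Bmp4 in bCFAE against basal (0.0436 without a filter, -0.415 to 0.518 without single wells), Id3 in bC8FAE against MEF (-0.00513 with only the groups compared, -0.0888 with the replicate block, -0.0750 to 0.0895 without single wells), Msx1 in basal against MEF (-0.886 to 0.0453) and Id1 in bC6FAE[10] against bC6FAE[2] (-0.0516 to 0.134), the last 2 without single wells. In bC6FAE[10] against bC6FAE[2] wells, 1 gene was called, and 2 with no filter, with only the groups compared and without MEF well 3 and bC8FAE well 4; leaving out single wells gave 0 to 1. The other ranges on leaving out single wells were 3 to 5 for bC6FAE[2] against bCFAE (main 5), 5 to 6 for bCFAE against basal (main 5) and 3 to 4 for bCSFAE against bCFAE (main 4); for the 10 class calls, leaving out single compounds gave 7 to 12.

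Compounds with a call changed from 0 to 1 for Bmp4 in DESeq2 and with a 50% minimum total (NT157), from 4 to 2 for Bmp7 without a filter and in DESeq2, from 1 to 2 for Id3 with the 50% minimum (NT157), and from 5 to 3 for Msx1 without a filter and with the 50% minimum. Leaving the bC8FAE wells out of the plate 3 reference, an alternative chosen after seeing the data, took Bmp7 from 4 to 3 compounds (LDC4297, 0.0558) and changed no other call of the 8 genes. DESeq2 added Msx1 calls for APTO_253 and BEZ235. Without a filter, adjusted p rose above 0.05 for Id3 in bCSFAE (0.140), Bmp7 with MEK (0.0561), Msx1 with mTOR (0.0693) and Id3 with VEGFR or PDGFR inhibitors (0.0586). For Id2, bC6FAE[2] and bCLFAE wells were called against bCFAE wells in fits of 2 groups alone (0.0239 and 0.0211). The cause was not tested, other than that more genes enter the adjustment without a filter.

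With the well number as a replicate block, the number of called genes was 1, 5, 5, 4, 5, 6, 1, 4 and 4 in the 9 media comparisons, in the order basal against MEF, bCFAE against basal, bC8FAE against MEF, the first 3 further media against bCFAE, bC6FAE[10] against bC6FAE[2], bCLFAE and bCSFAE, with no call changed. Deviations of same-numbered wells correlated by -0.14 to 0.13 over 94 pairs, so the numbers were not taken as pairs. Depth limits Msx2 and Smad6, whose counts were too low for a test in the medium wells, and Bmp7 and Msx1 in single compound wells with 2 to 6 counts.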

Other observations

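Across compound wells of a plate, with the bC8FAE wells on plate 3, some of the 8 genes varied together on the log2(CPM + 1) scale. The wells of a plate share a library and differ in depth, and these are descriptions over 90, 86 and 46 wells. Id3 and Msx1 had Pearson's r of 0.81, 0.50 and 0.79 on plates 1, 2 and 3, and 0.79, 0.36 and 0.52 without the 2 wells farthest from the median of Id3. Id1 and Id2 had r of 0.56, 0.60 and 0.59 (0.60, 0.57 and 0.54 without the 2 wells farthest in Id1), and Bmp4 and Msx1 0.60, 0.55 and 0.57 (0.61, 0.43 and 0.41 without the 2 farthest in Bmp4). Id1 and Id3, both ID genes, had r of 0.21, -0.39 and 0.20, and 0.06, -0.43 and -0.11 without the 2 wells farthest in Id1, so the positive values on plates 1 and 3 rest on those wells.

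Over 222 screening wells, after subtracting plate means, 7316 genes of at least 10 CPM were ranked by r with each gene. Msx1 was most like Nrgn (0.87), Tbx2 (0.86) and Fbln1 (0.85), and Id3 most like Ifitm1 (0.81), Aqp1 (0.80) and Rplp1 (0.80). Bmp7 was most like Tbx2 (0.69), Col18a1 (0.69) and Nrgn (0.67), 2 of which also stand in the list of Msx1. Id1 was most like Fam84a (0.69), Ier2 (0.67) and Serinc2 (0.66), Id2 most like Itgb1 (0.59), Id1 (0.58) and Mllt3 (0.57), and Bmp4 most like Marveld1 (0.61), Col6a1 (0.57) and Mmp11 (0.57). Smad6 reached only 0.41 with Kif5b, 0.40 with Sptan1 and 0.39 with Col4a1.

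Over the 8 media means, with 7612 genes ranked, Msx1 was most like Cd83, Notum and Jarid2, Bmp7 most like Ube2ql1, Cadps and Tmem2, and Id1 most like Cep170b, Tmem120a and Slc25a10, with r from 0.99 to 1.00. Id2 was most like Pfn2, Penk and Nf2 (0.99), Bmp4 most like Hunk (0.99), Tmem26 (0.98) and Enpp2 (0.97), Id3 most like Top3b (0.97), Dlc1 (0.97) and Slc35b2 (0.94), and Smad6 most like Wipi1 (0.96), Ccdc8 (0.95) and Phyh (0.95).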
